A study of Homo sapiens and Mus musculus with 19 samples.

Results

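The genes described here encode short non-coding RNAs that work by folding, and they were chosen by name. They comprised 9 human genes, read in K562 cells, and 6 mouse genes, read in mouse embryonic stem (mES) cells, out of 58721 human and 54446 mouse genes in the count tables. The human genes were the vault RNA genes VTRNA1-1, VTRNA1-2, VTRNA1-3 and VTRNA2-1, together with RPPH1, RMRP, RN7SK, SCARNA2 and TERC. The mouse genes were Vaultrc5, Rpph1, Rmrp, Rn7sk, Scarna2 and Terc. Chromatin-associated RNA (caRNA), the RNA that stays with the chromatin pellet after cells and nuclei are lysed, had been sequenced from 19 libraries. The mES cells, grown with LIF and inhibitors of GSK3 and MEK and passaged off their feeder cells, received a control siRNA (siControl) or siRNA against Nsun2 (siNsun2), with 3 libraries each. K562, a human erythroleukaemia cell line, was TET2 WT or TET2 KO and carried lentiviral shControl or shMBD6 under puromycin, with 3 libraries in each of the 4 groups. Per the study's methods both K562 genotypes came from another laboratory, and the sources used here do not give the number of clones behind the KO. A single library labelled mESC Pscp1 WT, replicate 3, entered no comparison. The labels did not say whether libraries came from separate cultures, so that p-values measure the spread between libraries.

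Vault RNAs are transcribed by RNA polymerase III and ride in the vault particle, a large cytoplasmic shell, and they are known substrates of NSUN2, which methylates cytosines in RNA to m5C. RPPH1 and RMRP are the catalytic RNAs of RNase P, which trims the 5′ ends of tRNA precursors, and of RNase MRP, which cuts ribosomal RNA precursors. RN7SK encodes 7SK, which holds the elongation kinase P-TEFb inactive through HEXIM proteins. SCARNA2 guides modification of spliceosomal RNA in Cajal bodies, and TERC carries the template that telomerase copies. TET2 is a dioxygenase that oxidises 5-methylcytosine, and MBD6 is a methyl-binding-domain protein.

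The human vault RNAs are printed first, since their likeness sets what short reads can tell apart. They were read from GENCODE v44 transcripts, in the DNA alphabet, and each matched hg38 at its locus. VTRNA1-1 lies at chr5:140711275-140711373, VTRNA1-2 at chr5:140718925-140719013 and VTRNA1-3 at chr5:140726158-140726246, all on the plus strand, and VTRNA2-1 at chr5:136080470-136080597 on the minus strand. Each is a single exon. Capitals mark TAGCTCA and TTCGAGACC, letters found within the internal box A and box B promoter elements of RNA polymerase III genes.
VTRNA1-1: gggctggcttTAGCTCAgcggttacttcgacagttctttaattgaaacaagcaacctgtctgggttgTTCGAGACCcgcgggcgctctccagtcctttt
VTRNA1-2: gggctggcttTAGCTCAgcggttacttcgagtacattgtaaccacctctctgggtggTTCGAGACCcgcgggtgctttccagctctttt
VTRNA1-3: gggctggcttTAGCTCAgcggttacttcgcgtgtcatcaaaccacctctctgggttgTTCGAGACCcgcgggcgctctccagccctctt
VTRNA2-1: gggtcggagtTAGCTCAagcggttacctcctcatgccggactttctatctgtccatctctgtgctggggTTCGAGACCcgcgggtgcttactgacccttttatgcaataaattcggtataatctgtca
Searched on the transcribed strand, both motifs occurred together in 5 of 5736 annotated human transcripts of 80 to 150 bases (0.0872%). The vault RNAs printed here are themselves among these 5, so that the count is no independent test of the motifs. The motifs did not overlap. In global alignments VTRNA1-2 and VTRNA1-3 were identical at 79 of 90 positions (87.8%), VTRNA1-1 and VTRNA1-3 at 82.8% and VTRNA1-1 and VTRNA1-2 at 81.8%. VTRNA2-1 stood further off, at 54.7% to 57.7%. Exact copies elsewhere in hg38 were few. Of the windows of 31 bases along each gene, 6 of 69 in VTRNA1-1, 0 of 59 in VTRNA1-2, 4 of 59 in VTRNA1-3 and 26 of 98 in VTRNA2-1 had a second place.

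The 5′ ends of mouse and human 7SK are shown because Rn7sk is the member that changed, and because the human gene had no countable base. Both stretches are 110 bases, mouse from chr9:78175524-78175633 in mm10, minus strand, and human from chr6:52995621-52995730 in hg38, plus strand. Capitals mark GATC, a sequence in the hairpin that HEXIM proteins bind.
Rn7sk: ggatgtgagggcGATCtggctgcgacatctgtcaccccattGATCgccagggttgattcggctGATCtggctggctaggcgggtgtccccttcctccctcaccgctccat
RN7SK: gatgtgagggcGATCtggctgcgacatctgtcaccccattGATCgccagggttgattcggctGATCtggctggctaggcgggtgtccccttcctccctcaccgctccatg
Over their whole lengths of 331 and 328 bases, the pair was identical at 326 of 332 alignment positions (98.2%). In the human genome 267 of 298 windows of 31 bases in RN7SK (89.6%) occurred at further places, up to 28 in all, and such reads need not be unique. The other RNAs differed more between species, at 81% identity for RMRP, 79.7% for RPPH1, 77.6% for SCARNA2 and 58% for TERC.

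Telomerase RNA is given by its first 70 bases, with the stretch that holds the template in capitals, human from chr3:169764991-169765060 in hg38 and mouse from chr3:96414790-96414859 in mm10, both on the minus strand. Capitals mark the longest run, within these bases, of the repeated telomere unit CCCTAA.
TERC: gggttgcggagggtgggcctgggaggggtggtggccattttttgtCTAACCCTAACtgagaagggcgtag
Terc: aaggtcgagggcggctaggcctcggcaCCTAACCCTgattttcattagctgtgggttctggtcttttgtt
Most of this end of the human gene was not countable, as described next.

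The members differed in how many of their bases could be counted. Reads that fell on more than 1 gene of the same strand were set aside as ambiguous, at 4.63% to 5.24% of records in K562 and 2.13% to 2.52% in the mES siRNA libraries. Several members are annotated more than once. RN7SK (chr6:52995621-52995948) lay wholly within a second entry named 7SK. RPPH1 (chr14:20343075-20343407) and SCARNA2 (chr1:109100193-109100612) lay wholly within long non-coding RNA genes on their own strand. All 3 had a count of 0 in all 12 K562 libraries. The 7SK entry was also at 0 in all 12, and the gene over RPPH1 held at most 3 counts and the gene over SCARNA2 at most 13. VTRNA2-1 had 27 of its 128 bases free of its second entry and a single count in 12 libraries. TERC (chr3:169764520-169765060) had 103 of 541 bases free, the longest run being the last 90 bases of the RNA, at chr3:169764520-169764609. These are the bases on which most of the TERC counts below could arise.
TERC, last 90 bases: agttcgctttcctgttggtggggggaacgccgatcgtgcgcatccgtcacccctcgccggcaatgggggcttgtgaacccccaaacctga
In mouse, Rmrp (chr4:43492788-43493058) lay wholly within a second entry of the same name, and both were at 0 in all mES libraries. Rpph1 had only 35 of 319 bases outside Ccnb1ip1, at chr14:50807733-50807767 on the minus strand.
Rpph1, first 35 bases: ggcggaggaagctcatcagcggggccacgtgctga
Rn7sk, Scarna2, Terc and Vaultrc5 were free over their whole length, as were VTRNA1-1, VTRNA1-2 and VTRNA1-3. Copies of the mouse genes elsewhere in mm10 were not looked for. How much of Rn7sk can take reads with a single alignment is therefore not known. The VTRNA1 genes do lie within a long non-coding RNA gene of their strand (chr5:140711215-140733281) that the count tables do not hold. Reads from such a transcript would be counted on the VTRNA1 genes, and their part was not tested. RMRP (chr9:35657754-35658017) was free in the annotation used here and still had 0 counts in all 12 libraries. The annotation that the counts were made with is a different release, and a second RMRP entry in it could not be looked for.

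**Figure D1:**
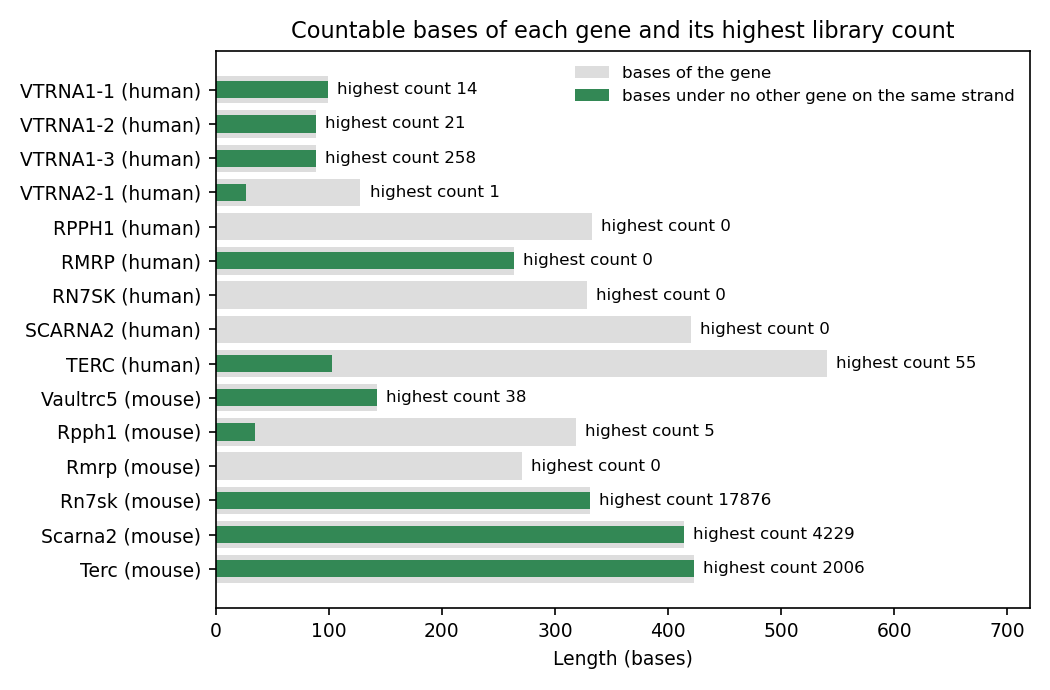
Horizontal bars give the length of each gene in bases (grey) and the bases under no other gene of the count tables on the same strand (green), with the highest count in any siRNA or K562 library written beside them. RPPH1, RN7SK, SCARNA2 and mouse Rmrp had no free base and a highest count of 0, while mouse Rn7sk, free throughout, reached 17876.

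The same pattern held beyond the members. Some small RNA genes share their locus with a same-strand entry, each covering most of the other. Of these, 42 of 42 human and 65 of 68 mouse genes were at 0 in every library. With under 30 free bases in a row, 3462 of 3540 human (97.8%) and 2398 of 2412 mouse genes (99.4%) were at 0. With no same-strand overlap, 1898 of 3425 human genes (55.4%) and 759 of 3272 mouse genes (23.2%) were at 0. Among the latter at 200 to 600 bases, the shares were 35.4% and 13%. For RPPH1, RN7SK, SCARNA2 and mouse Rmrp, a listed 0 is a count over no free base and gives no level of the RNA. For RMRP the reason for the 0 was not tested. Background, judged by olfactory receptor genes, would give it 3.7 to 5.5 counts summed over the libraries of each K562 group. Its 0 lies below that and is not read as a level either. For a countable gene, a count of 0 allows up to 3 counts, or 0.0294 to 0.0575 CPM (the usual scaling of a count by the library's gene counts) per K562 library, with counting error alone covered. Reads with several alignments, 10.1% to 11.2% of records in K562 and 4.77% to 4.83% in the mES siRNA libraries, were left uncounted as well. The libraries were made after a clean-up by size whose limit the sources used here do not give, and its part in the levels of these short RNAs was not tested.

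Gene counts per library were 58078323 to 66832780 in the mES siRNA libraries and 52158403 to 102070223 in K562. Of 8 mES cell markers 7 reached 1 CPM, and Sox2, which like several members lies wholly under another gene of its strand, was listed at 0. The 6 feeder fibroblast markers summed to 32.3 to 34.7 CPM in siControl and 26.9 to 28.9 CPM in siNsun2 libraries, of 1730 to 1750 and 1340 to 1370 CPM for the mES markers. In K562, 5 or 6 of 8 erythroid-leukaemia markers reached 1 CPM, with HBG2, also overlapped throughout, at 0. Although the labels call the cells lymphoblasts, 5 of 6 lymphoid markers stayed under 1 CPM in all groups and the list summed to 1.47 to 5.5 CPM. Mean Nsun2 went from 129 ± 3.45 CPM (SD, n = 3) with siControl to 103 ± 3.55 CPM with siNsun2. Its log2 change was -0.34, or -0.16 when scaled by total gene counts. The median of genes at 100 to 500 CPM was -0.22. Little of the Nsun2 decrease in caRNA thus stood apart from genes of like level. Mature Nsun2 mRNA and protein were not measured here, so the extent of depletion cannot be read from these values. The paper reports that Nsun2 depletion lowered caRNA m5C. MBD6 in TET2 WT was 41.5 ± 2.55 CPM with shControl and 28 ± 2.71 CPM with shMBD6. In TET2 KO it was 30.3 ± 0.75 and 34.4 ± 3.86 CPM, the other way round, and these libraries are therefore called by their label. These too are levels in caRNA, not of mature mRNA or protein. With shControl, TET2 itself stood at 121 ± 2.59 CPM in the WT and 129 ± 2.23 CPM in the KO, so that its level did not mark the genotype.

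Among the countable RNAs of mES cells, 7SK was by far the most abundant on chromatin. Per kb of gene length, siControl libraries held 803 ± 50 CPM of Rn7sk (n = 3), 158 ± 6.24 of Scarna2, 65.7 ± 8.5 of Terc and 3.19 ± 0.93 of Vaultrc5, and no neighbours in this order overlapped. The order was the same in siNsun2 libraries, at 588 ± 5.57, 151 ± 7, 69 ± 6.01 and 3.2 ± 0.321 CPM per kb. Background, taken from the reads on olfactory receptor genes, would give at most 3.5 counts summed over 3 libraries for each of these genes. Vaultrc5 summed to 84 counts in siControl and 86 in siNsun2 libraries, 108 and 72.3 times its background.

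The siNsun2 libraries were compared with siControl to ask how depletion of the methyltransferase alters caRNA. Of the 6 members 4 could be tested, and 1 was called, beside a background of 50.2% of all genes tested. Rn7sk fell in siNsun2. Its counts were 17876, 15171 and 15686 in the siControl libraries and 12307, 11994 and 12258 in the siNsun2 libraries. On the TMM scale these were 285, 256 and 257 CPM compared with 196, 193 and 195 CPM. The groups did not overlap, siNsun2 being the lower, and siControl replicate 1 was the highest of all. The log2 change was -0.45 (SE 0.03, 95% interval -0.51 to -0.4, edgeR quasi-likelihood, Benjamini-Hochberg adjusted p = 6.69e-26), or 0.732-fold. It stayed lower and called under every scaling, filter, tool and single left-out library that was run, between -0.51 and -0.24.

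**Figure D2:**
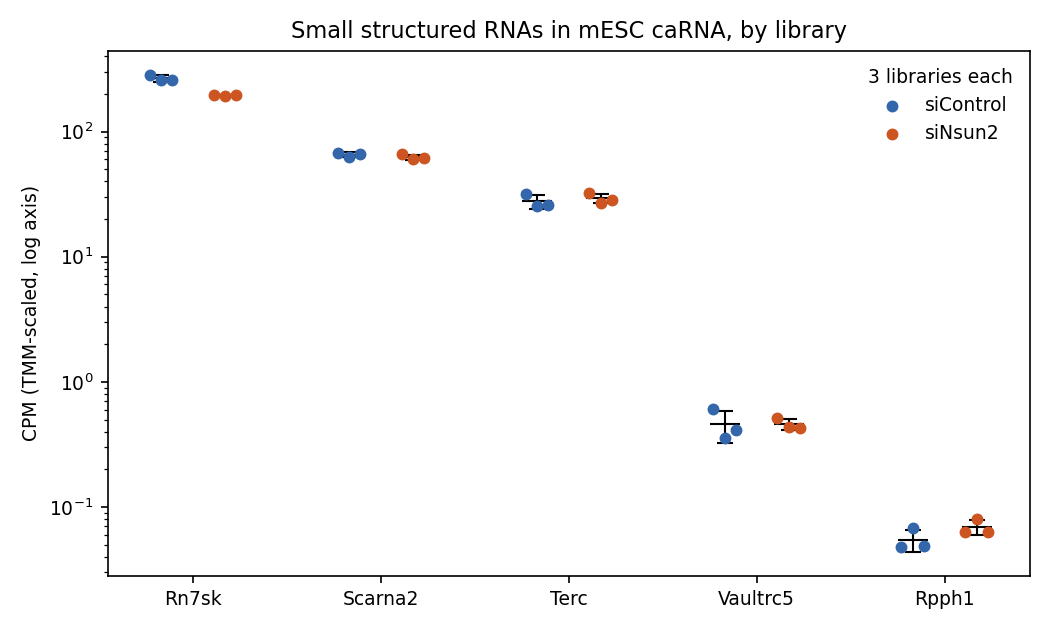
Points give the CPM of each library on a log axis for 5 mouse genes in siControl (blue) and siNsun2 (orange), with bars for mean ± SD of 3 libraries. The Rn7sk groups do not overlap (256 to 285 and 193 to 196 CPM), whereas those of Scarna2, Terc, Vaultrc5 and Rpph1 do.

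The decrease can be set beside that of other genes. The median log2 change of all 27603 tested genes was 0.14, and 4.91% of them changed by as much as Rn7sk or fell further. Among 2148 genes at 100 to 500 CPM, the range in which Rn7sk lies, the median was -0.22, 1839 were called lower and 133 higher, and 5.07% fell at least as far. Of 164 tested small RNA genes under 600 bases, 16 were called lower and 1 higher, and 16.5% fell at least as far as Rn7sk. Of the 14 among them at 10 CPM or more, 6 were called lower and 0 higher, and 21.4% fell at least as far. Reads on no annotated gene made up 28.9% to 29.9% of records in siNsun2, compared with 19.6% to 20.2% in siControl. Olfactory receptor reads rose with them, with 0.019 to 0.0209 per kb in siControl, scaled by records as CPM is by counts, and 0.029 to 0.0316 in siNsun2. Their part in the change of Rn7sk was not tested. Fewer cells with the RNA on chromatin and less of it per cell cannot be told apart in these bulk libraries.

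Scarna2, which guides modification in Cajal bodies, was 67.5, 62.4 and 66.4 CPM in siControl and 65.9, 60.5 and 61.3 CPM in siNsun2 libraries. The groups overlapped, and the log2 change was -0.06 (SE 0.04, 95% interval -0.14 to 0.01, edgeR adjusted p = 0.173). Its call and direction rested on the scaling and on single libraries. It was called lower with DESeq2 size factors (-0.13, adjusted p = 0.00941), by DESeq2 (-0.13, adjusted p = 0.021), and without siControl replicate 2 (-0.1) or siNsun2 replicate 1 (-0.11). It was called higher with total gene counts (0.12, adjusted p = 0.0109) and with TMM on high genes only (0.14, adjusted p = 0.00174). Relative to the median of all genes it stood at -0.2 under each of these scalings, and Rn7sk at -0.59 to -0.58.

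Terc, the telomerase RNA, was 31.9, 25.4 and 26.1 CPM in siControl and 32, 27 and 28.6 CPM in siNsun2 libraries. The first replicate was the highest in each group and the groups overlapped. The log2 change was 0.07 (SE 0.06, 95% interval -0.06 to 0.2, edgeR adjusted p = 0.368). Terc was called higher with total gene counts (0.25, adjusted p = 0.00102), with TMM on high genes only (0.28, adjusted p = 0.000353) and without siControl replicate 1 (0.17, adjusted p = 0.0242). Without siNsun2 replicate 1 the value was -0.01. Relative to the median of all genes Terc stood at -0.07 to -0.06.

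The mouse vault RNA, Vaultrc5, gave 38, 21 and 25 counts in siControl and 32, 27 and 27 counts in siNsun2 libraries. Its levels were 0.457 ± 0.133 and 0.458 ± 0.0454 CPM, and the siNsun2 values lay inside the siControl range. The log2 change was 0.00 (SE 0.44, edgeR adjusted p = 0.998). Its 95% interval ran from -0.88 to 0.88, so that changes of up to about that size in either direction remain possible. The gene lies at chr18:36801866-36802008 in mm10, plus strand, and its sequence is not shown. Rpph1 gave 3, 4 and 3 counts in siControl and 4, 5 and 4 in siNsun2 libraries on its 35 free bases, too few for the filter. Fitted with no filter, it had a log2 change of 0.31 (SE 1.27, edgeR adjusted p = 0.888). Rmrp was listed at 0 throughout.

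**Figure D3:**
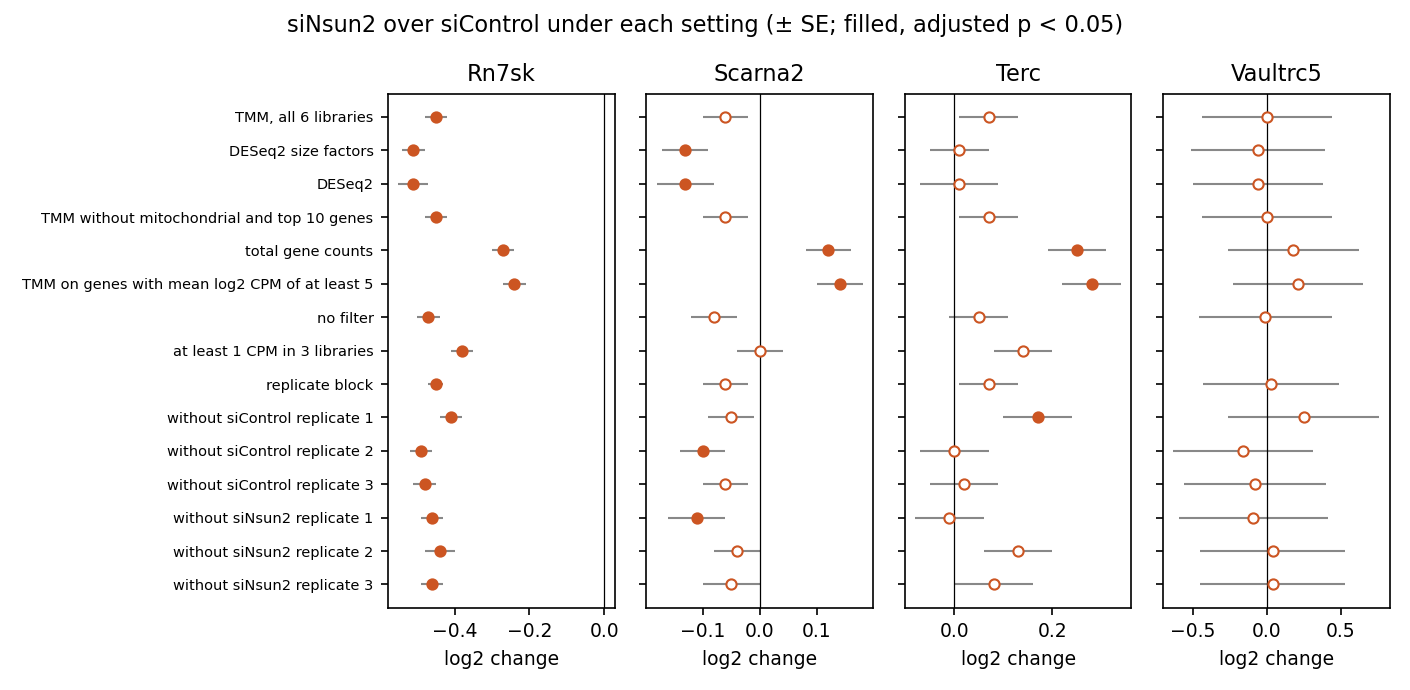
Each panel gives the log2 change of a gene (siNsun2 over siControl, ± SE) under the reported fit and each alternative, filled where the adjusted p was under 0.05. Rn7sk lies below 0 and is filled throughout, Scarna2 and Terc change sign or call with the setting, and Vaultrc5, which has no value under the 1 CPM filter, is open throughout.

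In K562, most counts on the human vault RNA genes fell on VTRNA1-3. Over the 12 libraries it held 1912 of the 2055 counts on the VTRNA1 genes (93%), between 87.5% and 99.2% per library. Per kb it stood at 25.2 ± 4.14 CPM in TET2 WT shControl, compared with 1.3 ± 1.1 for VTRNA1-2 and 0.793 ± 0.721 for VTRNA1-1. The share of VTRNA1-3 was 91.5% (95% Wilson interval 89.2% to 93.3%) in TET2 WT shControl, 92.2% (89.3% to 94.3%) in TET2 WT shMBD6, 94.1% (91.6% to 95.9%) in TET2 KO shControl and 95.3% (92.9% to 96.9%) in TET2 KO shMBD6. These intervals cover counting error over summed libraries, not the spread between them.

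The counts of VTRNA1-3 were 131, 258 and 244 in TET2 WT shControl, 191, 90 and 131 in TET2 WT shMBD6, 173, 119 and 152 in TET2 KO shControl and 136, 145 and 142 in TET2 KO shMBD6. Scaled, the groups averaged 2.24, 1.81, 2.04 and 1.99 CPM in the same order, 239 to 462 times background. All 12 libraries lay between 1.59 and 2.47 CPM, and the only pair of groups that did not overlap was TET2 WT shMBD6 and TET2 KO shControl, which no comparison here sets side by side.

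VTRNA1-1 gave 0, 10 and 14 counts in TET2 WT shControl, 6, 2 and 5 in TET2 WT shMBD6, 5, 1 and 3 in TET2 KO shControl and 0, 3 and 3 in TET2 KO shMBD6. VTRNA1-2 gave 1, 13 and 21, 7, 6 and 9, 4, 7 and 8, and 4, 8 and 3 counts in the same groups. The sums over 3 libraries were 4.23 to 15.8 times background for VTRNA1-1 and 10.2 to 25.5 times for VTRNA1-2. In both genes TET2 WT shControl replicate 1 was lower than the other libraries of its group. TERC went the other way in that library, with 55 counts compared with 13 and 5 in the rest of TET2 WT shControl. It gave 13, 1 and 2 counts in TET2 WT shMBD6, 1, 6 and 5 in TET2 KO shControl and 0, 0 and 2 in TET2 KO shMBD6, the last being 1.35 times background. VTRNA2-1 had its single count in TET2 WT shMBD6 replicate 3.

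**Figure D4:**
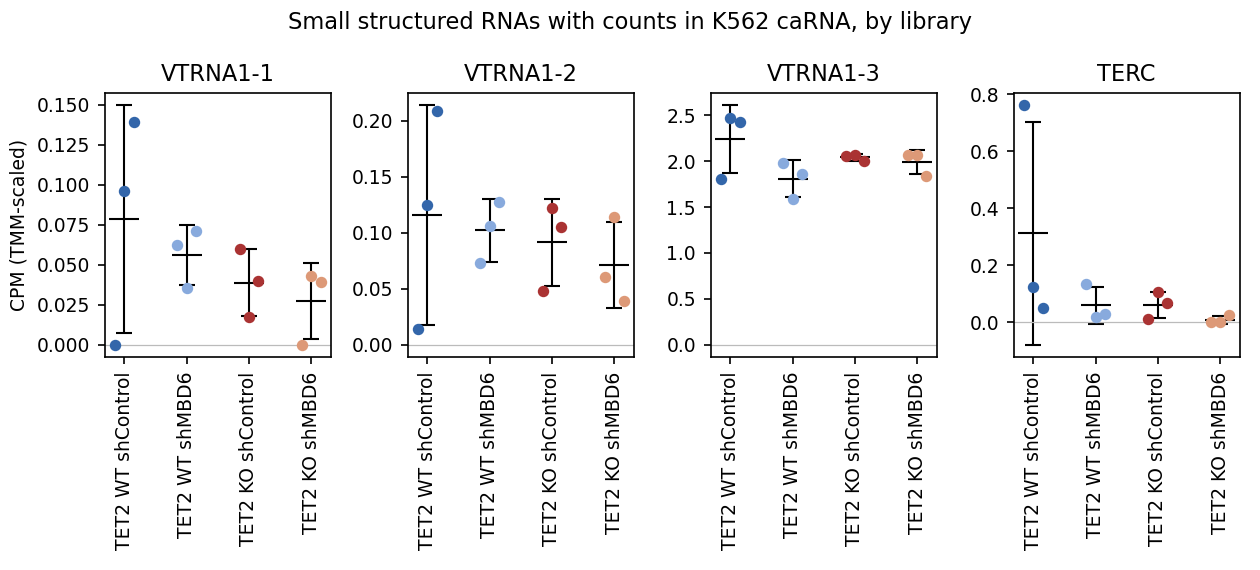
Points give CPM per library for the human genes with more than a single count, by group, with bars for mean ± SD of 3 libraries and a separate linear axis for each gene. VTRNA1-3 lies between 1.59 and 2.47 CPM in all 12 libraries, and TERC in TET2 WT shControl is set by 1 library with 55 counts.

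The K562 groups were compared to ask what loss of TET2 and depletion of MBD6 do to caRNA, singly and together. Only VTRNA1-3 passed the filter, and it was called in none of the comparisons. In TET2 KO over TET2 WT with shControl, where 45.8% of all genes tested were called, its log2 change was -0.13 (SE 0.26, 95% interval -0.66 to 0.39, edgeR adjusted p = 0.715). For the libraries labelled shMBD6 over shControl it was -0.31 in TET2 WT (SE 0.26, interval -0.83 to 0.22, adjusted p = 0.361), beside 42.5% of genes called. In TET2 KO the value was -0.04 (SE 0.26, interval -0.56 to 0.49, adjusted p = 0.936), beside 36.4% called. TET2 KO over TET2 WT among the libraries labelled shMBD6 gave 0.14 (SE 0.26, interval -0.39 to 0.67, adjusted p = 0.675), where 58.6% of genes were called. The difference between genotypes in the response to shMBD6 was 0.27 (SE 0.37, interval -0.47 to 1.01, adjusted p = 0.572), beside 49.4% called. Of 145 small RNA genes under 600 bases that were tested, 5 to 15 were called higher and 7 to 10 lower in each of these comparisons. The intervals are wide, and changes of any size inside them remain possible.

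With no filter, VTRNA1-1, VTRNA1-2 and TERC could be fitted and none was called by edgeR in any K562 comparison. TERC had the largest values, -2.35 in TET2 KO over WT with shControl (SE 1.35, adjusted p = 0.208) and -2.18 for shMBD6 in TET2 WT (SE 1.33, adjusted p = 0.248), both set against the group with 1 high library. It was at -2.46 for shMBD6 in TET2 KO (SE 1.56, adjusted p = 0.306) and at -2.63 for TET2 KO over WT with shMBD6 (SE 1.55, adjusted p = 0.176), where the lower group held 2 counts in all. These values refer to the free bases of the RNA only. For RN7SK itself there was no value, although 300 entries named as 7SK copies, a set picked after the counts were seen, were in the tables. Of these 176 were at 0 throughout, and the rest summed to 6.24 to 15.6 CPM per library, which cannot be assigned to RN7SK.

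Over the 12 K562 libraries, the log2 CPM of VTRNA1-3 ran most like that of HADHB (Pearson r = 0.935), KREMEN1 (0.876) and MRPL15 (0.855) among 15459 genes of at least 1 CPM. These are the highest of many values, the libraries share groups and scaling, and the correlations are given as a description.

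The proteins that bind, process or transcribe these RNAs were counted as lists chosen by function. In mES cells the lists had no gene called higher under TMM and several called lower, as had 24.3% of all genes tested. Of genes at 100 to 500 CPM, 85.6% were called lower. The lists hold genes within and below that range, and their counts were not set beside genes of like level. For 7SK these were 4 of 7 genes: Ccnt2 and Ccnt1, the cyclins of P-TEFb, at -0.32 and -0.25, Larp7, which binds the 3′ end of 7SK, at -0.21, and the kinase Cdk9 at -0.18. Hexim1 (0.04) and Mepce (0.24), which caps 7SK, were not called. Without siNsun2 replicate 2 the count was 2, and with total gene counts it was 2 lower and 2 higher. Of the RNase P and MRP proteins 6 of 10 were called lower, led by Rpp25 (-0.6), Rpp40 (-0.52) and Pop4 (-0.48). Of the telomerase and H/ACA proteins 6 of 10 were, led by the Cajal body factor Wrap53 (-0.31), Shq1 (-0.29) and Naf1 (-0.26), while Tert was not called (-0.01). Of the proteins of the vault particle and of vault RNA processing (the vault list) 2 of 5 were. Parp4 (-0.29) and Dicer1 (-0.1) were called, and the major vault protein gene Mvp was not (0.06). Cajal body proteins numbered 7 of 8, led by Coil (-0.77), which encodes the body's scaffold, and RNA polymerase III and its factors 21 of 31, led by Polr3gl (-0.49), Ssb (-0.39) and Brf2 (-0.37).

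These directions depended on the scaling. Median log2 changes of the lists were -0.24 to -0.07 under TMM and -0.06 to 0.11 with total gene counts. That scaling also called higher 5 RNA polymerase III genes, 3 telomerase genes, 2 genes of the vault list and 1 RNase P gene. Among 9 other small structured RNAs, the signal recognition particle RNAs Rn7s2 (-0.81) and Rn7s1 (-0.48) and the nucleolar RNAs Snord118 (-0.66) and Snord13 (-0.47) were called lower and none higher. Rn7s1 and Rn7s2 are near-identical copies and uncertain. With total gene counts 2 of the 9 were still called lower, and the count ran from 3 to 6 with 1 library left out.

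**Figure D5:**
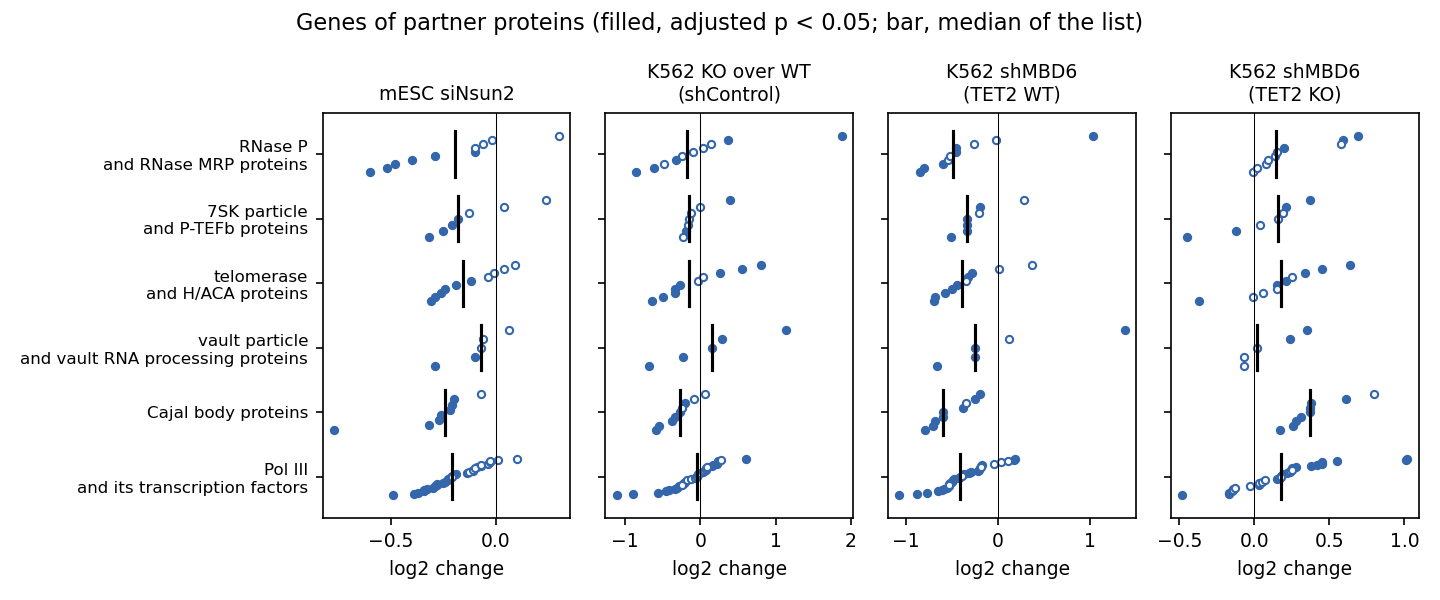
Points give the log2 change of each tested gene in lists of partner proteins in 4 comparisons, filled where the adjusted p was under 0.05, with a black bar at the median of the list and a separate axis per panel. Cajal body genes called lower number 7 of 8 in mES siNsun2 and 8 of 9 in K562 shMBD6 with TET2 WT, and 8 of 9 were called higher in K562 labelled shMBD6 with TET2 KO. With total gene counts the mES count fell to 3, and in TET2 WT to 5.

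In K562 the same lists were counted, and the difference between any list and VTRNA1-3 was not tested. With shMBD6 in TET2 WT, 4616 of all 26023 genes tested were called higher and 6431 lower. RNA polymerase III and its factors had 23 genes lower and 2 higher of 31. GTF3C6, a subunit of the factor TFIIIC, was at -1.07 and the polymerase III repressor MAF1 at -0.77. Cajal body genes were 8 lower of 9, led by NOP56 (-0.79), and 5 without TET2 WT shMBD6 replicate 1 or with total gene counts. The 7SK list was 5 lower of 7, led by MEPCE (-0.51), and 2 with TMM on high genes only. Telomerase and H/ACA genes were 7 lower of 10, led by NHP2 (-0.69) and GAR1 (-0.68), with 1 higher as well under total gene counts. RNase P and MRP genes were 5 lower and 1 higher of 10, with POP5 at -0.85 and RPP25 at 1.03. The vault list had 3 lower and 1 higher of 5, with SRSF2 at -0.66 and MVP, at low level, at 1.38, and 2 were higher under total gene counts. In the libraries labelled shMBD6 with TET2 KO, where 4095 of all genes tested were called higher and 5370 lower, RNA polymerase III genes were 15 higher and 4 lower (22 and 1 with total gene counts), Cajal body genes 8 higher of 9 and telomerase genes 5 higher and 1 lower of 10. GTF3C6 was then at 1.02 and NHP2 at 0.64. RNase P and MRP genes were 3 higher of 10, and 1 without TET2 KO shControl replicate 2. The vault list was 2 higher of 5, and the 7SK list 2 higher and 2 lower of 7, or 3 and 0 with total gene counts.

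In TET2 KO over WT with shControl, 6127 of all 26023 genes tested were called higher and 5794 lower. RNA polymerase III genes were 6 higher and 11 lower of 31 (1 and 19 with total gene counts), with SNAPC1, a subunit of the SNAPc factor, at 0.61 and GTF3C6 at -1.11. RNase P and MRP genes were 2 higher and 3 lower of 10 (2 and 5 with total gene counts), with RPP25 at 1.88 and RPP40 at -0.86. Genes of the vault list were 3 higher and 2 lower of 5 (2 and 2 with total gene counts), with MVP at 1.14 and SRSF2 at -0.68. Telomerase genes were 3 higher and 5 lower of 10 (0 and 6 with total gene counts), with NOP10 at 0.8, TERT at 0.56 and NHP2 at -0.64. Cajal body genes were 6 lower of 9, led by NOP56 (-0.59), and 3 when either TET2 WT shControl replicate 1 or the third TET2 KO shControl library was left out. The 7SK list had HEXIM1 higher (0.39) and LARP7 lower (-0.19) of 7, at adjusted p of 0.0157 and 0.0479 by edgeR, and 0 higher and 5 lower with total gene counts. In TET2 KO over WT among the libraries labelled shMBD6, 7837 of all genes tested were called higher and 7422 lower. There, 25 of 31 RNA polymerase III genes were higher and 0 lower, or 13 and 4 with TMM on high genes only. Cajal body genes were 9 higher of 9, telomerase genes 9 of 10 and RNase P and MRP genes 7 of 10. The vault list had 3 higher of 5 and the 7SK list 3 of 7, and each of these lists had 0 lower. Under other scalings the counts higher went down to 6, 5, 6, 1 and 2 in that order. The vault list and the 7SK list then had up to 1 lower. The other small structured RNAs, 7 tested, had none called in the shControl comparison or for shMBD6 in either genotype. In TET2 KO over WT with shMBD6 they had 1 higher, the spliceosomal RNU5A-1 (0.89, edgeR adjusted p = 0.0329), and none with total gene counts or DESeq2 size factors. With 1 library left out that count ran from 0 to 2, and it was 0 without either TET2 WT shMBD6 replicate 2 or 3, or without TET2 KO shMBD6 replicate 1 or 2.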

How the data were processed

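Chromatin-associated RNA was sequenced from 19 libraries, of which 18 in 6 groups of 3 were compared. As the methods describe, the authors trimmed reads with Trimmomatic 0.39, aligned them with HISAT2 2.2.1 to mm10 or hg38 and counted them with HTSeq 0.12.4 over GENCODE genes. The deposited values are raw read counts per gene. No line named an ERCC spike-in, so that total caRNA per cell cannot be compared. Summary lines without a gene did not count towards library sizes.

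Counts were tested with the edgeR 4.0.16 quasi-likelihood test (R 4.3.3, limma 3.58.1) with TMM scaling, filterByExpr at 10 counts and Benjamini-Hochberg adjustment over every gene tested (two-sided). Calls were made under an adjusted p of 0.05. The mES model held 6 libraries and the K562 model 12. The steps were tested on simulated counts. DESeq2 1.42.0 and other scalings, filters and left-out libraries were alternatives. Libraries of a group differed beyond sampling noise (chi-square per degree of freedom 3.87 to 14.1).

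Positions, overlaps and sequences came from GENCODE v44 and vM21, to which 99.2% of human and 99.93% of mouse identifiers matched. Those releases are not the ones the authors counted with. The members, lists and named genes (all members, and from each list up to 3 called genes per direction with the largest change) were chosen with earlier results of these data known. The text prints part of the list genes that this rule names, picked after their values were seen. The sources used here do not give the feature type and strand option of counting, and the overlaps assume counting by strand over whole genes.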

Additional observations from a re-analysis of the deposited data

Results flagged for a closer look

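The single library labelled Pscp1 WT entered no comparison, and 3 members stood above the siControl range in it when scaled by total gene counts. Rn7sk was 774 CPM compared with at most 267 in siControl, Vaultrc5 0.967 compared with 0.569 and Rpph1 0.152 compared with 0.0635. Scarna2 and Terc were lower there, at 34.8 and 9.53 CPM. The library also differed in its mitochondrial share (0.0969% compared with 1.17% to 1.21% of gene counts). With 1 library of another experiment the differences were not tested.

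The response to shMBD6 differed between TET2 genotypes by the edgeR interaction test for MBD6 itself (log2 difference 0.75), for NSUN2 (0.62) and for TET2 (-0.45). It also differed for 24 of 31 RNA polymerase III genes, 8 of 9 Cajal body genes and 7 of 10 RNase P and MRP genes. The same held for 6 of 10 telomerase genes, 4 of 7 genes of the 7SK list and 4 of 5 of the vault list. Of the other small RNAs 2 of 7 differed. All of these stand beside 49.4% of all genes. The small RNAs were RNU4-1 and RNU4-2, near-identical copies, and their list's count ran from 0 to 4 with 1 library left out. MBD6 caRNA did not fall in the TET2 KO libraries labelled shMBD6, and its mRNA and protein were not measured here. Whether MBD6 was depleted there cannot be told, and these differences need not be responses to its depletion. The paper reports that shMBD6 slowed the growth of TET2-KO K-562 cells, which MBD6 overexpression rescued.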

How the results depend on the processing

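The Rn7sk decrease kept its direction and its call under every alternative run. The number of mES members called was 2 with DESeq2 size factors and 2 by DESeq2 (Scarna2 in addition). It was 3 with total gene counts and 3 with TMM on genes of mean log2 CPM of at least 5 (Scarna2 and Terc in addition), and 1 to 2 with 1 library left out. Scarna2 turned to 0.12 and 0.14 under the latter scalings and to 0.00 with a filter of 1 CPM. Vaultrc5 turned to -0.06 with DESeq2 size factors, -0.06 by DESeq2 and -0.01 with no filter, and ran from -0.16 to 0.25 with 1 library left out, Terc from -0.01 to 0.17 and Scarna2 from -0.11 to -0.04. In K562, 0 members were called under every alternative run. VTRNA1-3 turned to 0.09 (total gene counts), 0.01 (no filter) and 0.01 (only the groups compared) for shMBD6 in TET2 KO, with -0.07 to 0.02 when 1 library was left out. For TET2 KO over WT under shMBD6 it turned to -0.01 (total gene counts) and -0.08 (TMM on high genes). Scaling moved the median of all mES genes from 0.07 to 0.34. Same-numbered libraries did not deviate together (correlations -0.0174 to 0.0254, the own number best in 7 of 21), so numbers were not taken as pairs. With a replicate block 1 mES member was called and no member's call changed, while the other small RNAs higher in TET2 KO over WT with shMBD6 went from 1 to 4 of 7. Vaultrc5 had no value under the 1 CPM filter. Few countable bases and low counts limit the vault RNAs and TERC. The causes of these changes were not tested.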
